A study of Saccharomyces cerevisiae with 16 samples.

Results

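The genes described here encode the proteins of the mitochondrial ribosome of the budding yeast Saccharomyces cerevisiae. They were taken by name, as every gene whose symbol is MRP, MRPL or MRPS followed by a number, and 55 of the 5449 genes tested met that rule. Of these, 37 encode proteins of the large subunit, 17 encode proteins of the small subunit, and MRP8 belongs to neither. Symbols of the form MRPL and MRPS name the subunit directly. MRP7, MRP20 and MRP49 are large-subunit proteins, and MRP1, MRP2, MRP4, MRP10, MRP13, MRP17, MRP21 and MRP51 are small-subunit proteins, by their uniform ribosomal protein names in the gene table. A uniform name starting with u or b marks a protein shared with bacterial ribosomes (36 of the genes), and one starting with m a protein specific to mitochondrial ribosomes (18 genes). Each gene was read by a single probe set, and the genes lie on 12 chromosomes.

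The mitochondrial ribosome translates the few messages encoded in mitochondrial DNA, most of which specify core subunits of the respiratory chain and of the ATP synthase. Its ribosomal RNAs come from mitochondrial DNA, and all but one of its proteins come from nuclear genes, are made in the cytosol and are imported. In budding yeast these nuclear genes are known to be expressed in concert. The RNA-binding protein Puf3 is known to bind the messages of many of them.

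Total RNA of 8 strains, grown to an optical density of 0.5, was hybridized to Affymetrix Yeast Genome 2.0 arrays, with 2 arrays per strain. In the mutants, an aspartate of 1 subunit of CCT, the cytosolic ring chaperonin that folds actin and tubulin, is replaced by glutamate, and the series title asks how equivalent substitutions differ in effect. MA1 carries D96E in CCT1, MA2 D90E in CCT2, MA3 D91E in CCT3, MA5 D117E in CCT5, MA6 D89E in CCT6, MA7 D96E in CCT7 and MA8 D98E in CCT8, and WT carries none of them. Each substitution is marked with KANMX4, spelled KanMX4 in the label of MA6. Every strain, WT included, has a CBP tag at CCT6, marked by URA3 in MA1, MA2, MA3, MA5, MA7 and MA8 and by KanMX4 in MA6 and WT. All strains also share the alleles leu2, leu2-3, trp1, gal2 and ura3-52, together with prc467, prb1-1122 and pep4-3, of which the last 2 lie in genes for vacuolar proteases. Nothing in the labels says whether the arrays of a label came from separate cultures or from different clones, so a p-value here reflects only how far these arrays spread, which may be technical.

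The genotype markers went against several labels. URA3 (orotidine-phosphate decarboxylase, of uracil synthesis) was low, between 7.23 and 8.12 on the log2 scale, on MA2 replicate 2, MA5 replicate 1, MA8 replicate 1 and WT replicate 1, and between 11.70 and 12.05 on the other 12 arrays. On 6 arrays this opposed the labelled marker at CCT6, namely MA2 replicate 2, MA5 replicate 1, both MA6 arrays, MA8 replicate 1 and WT replicate 2. CCT6 was at 11.46 to 11.94 on the 4 arrays with low URA3 and at 12.46 to 12.94 on the others. A strain name below therefore means the arrays that carry that label, and every result is also given array by array. On MA3 replicate 1 and MA7 replicate 2 the genes of chromosome X were raised as a whole. Per array, the median over the tested genes was at least 10.47.

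The mitochondrial ribosomal protein genes were all measured well above the dim range. Their means over the 16 arrays lay between 10.11 and 12.46 (log2 expression), and 0 of the 55 fell below a mean of 7, the value used here to mark dim probe sets. They varied little. The SD of a gene over the 16 arrays had a median of 0.105 for the 55 genes, with a range of 0.042 to 0.296, against a median of 0.137 for all tested genes. The large subunit (median SD 0.105) and the small subunit (0.102) were close in this measure. All of these are log2 values after normalization between arrays, so an equal shift of every transcript would be invisible, and fewer mitochondria or less message for the same mitochondria cannot be told apart. Levels are compared only for 1 gene across arrays, since probe sets of different genes do not share a scale.

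**Figure D1:**
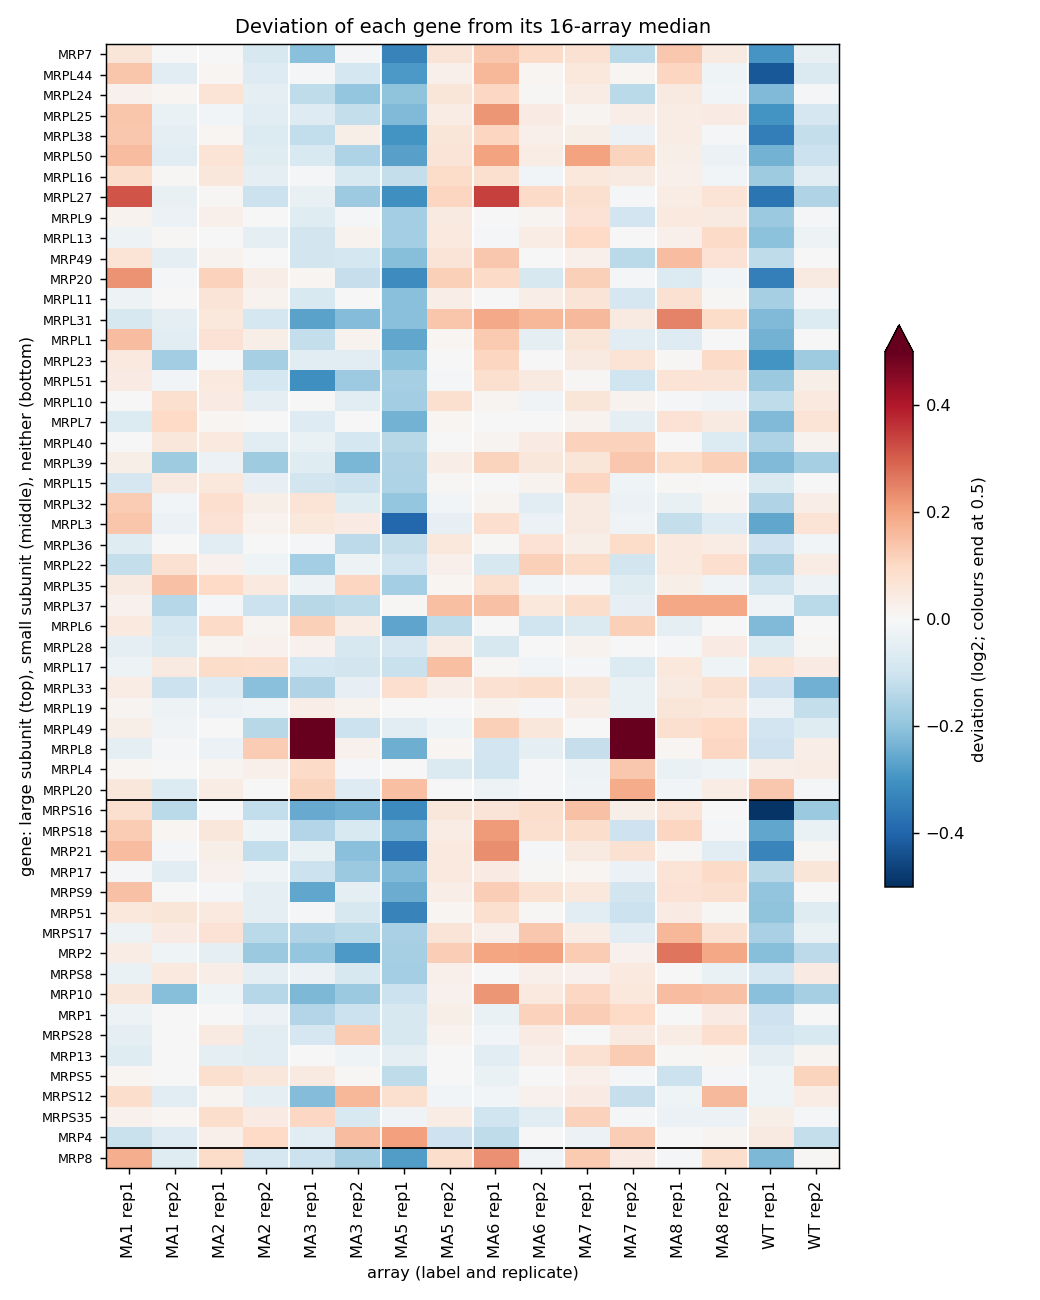
Deviation (log2) of each of the 55 genes (rows) from its own median over the 16 arrays (columns, 2 per label), with 37 large-subunit genes above 17 small-subunit genes and MRP8 at the bottom, ordered within a subunit by correlation with the other genes. The columns MA5 replicate 1 and WT replicate 1, are blue for most genes, with medians of -0.17 each, and the dark squares of MRPL8 and MRPL49 on MA3 replicate 1 and MA7 replicate 2 are the genes of chromosome X.

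The clearest feature of these genes was a low level on the arrays MA5 replicate 1 and WT replicate 1. To read the 55 genes together, each value was expressed as its deviation from the gene's own median over the 16 arrays. The median deviation on MA5 replicate 1 was -0.17, with 48 of 55 genes below their median, against 45.6% of all tested genes. On WT replicate 1 it was also -0.17, with 50 of 55 below, against 47.1% of all tested genes. The other array of each label did not share this: on MA5 replicate 2 the median was 0.033, with 44 of 55 genes above (60.9% of all genes), and on WT replicate 2 it was -0.0066, with 32 below and 23 above (37.4% and 62.6% of all genes). Each of these labels thus held a low array and one that was not low.

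In all, 46 of the 55 genes were below their median on both low arrays, which were picked out by these same values. The share of all tested genes below on both is not given here, and on each alone it was 45.6% (MA5 replicate 1) and 47.1% (WT replicate 1). For 28 of the 46 genes these arrays were also the 2 lowest of the 16, which was true of 17.5% of all tested genes. MRPS16, a small-subunit protein with a bacterial counterpart (bS16m), had the largest such deviation on WT replicate 1, at -0.49. MRPL3, a large-subunit protein specific to mitochondria (mL44), had the largest on MA5 replicate 1, at -0.39.

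Both subunits took part. On MA5 replicate 1 the large subunit had a median deviation of -0.17, with 32 of 37 genes below, and the small subunit one of -0.16, with 15 of 17 below. On WT replicate 1 the large subunit had -0.18 (34 of 37 below) and the small subunit -0.14 (15 of 17 below). Proteins with a bacterial counterpart had -0.18 on MA5 replicate 1 and -0.17 on WT replicate 1, and proteins specific to mitochondria -0.16 and -0.12, so both classes of protein were low.

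A few genes stood outside this pattern. MRP4 (uS2m, of the small subunit), MRPL4 (uL29m) and MRPL20 (mL58, both of the large subunit) were above their medians on both low arrays. MRPL17 and MRPS35 were above it only on WT replicate 1, and MRPL19, MRPL33, MRPL37 and MRPS12 only on MA5 replicate 1.

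On the other 12 arrays the median deviation over the 55 genes lay between -0.077 and 0.063. The arrays of MA3 were the lowest of them. MA3 replicate 1 had -0.063 and MA3 replicate 2 had -0.077, each with 42 of 55 genes below, but 63.9% and 59.3% of all tested genes were also below their medians there. MA6 replicate 1 was the highest, at 0.063 with 38 genes above (51.5% of all genes), and MA7 replicate 1 had the most genes above, 47, with a median of 0.046 (51.2% of all genes). The 6 labels of these arrays had SDs of 0.00049 to 0.049 between their 2 arrays in this median (pooled SD 0.031). Leaving out MA5 and WT here was a choice made after seeing the data, and with them the pooled SD was 0.070. MA3 averaged -0.070 with an SD of 0.0094 (n = 2).

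**Figure D2:**
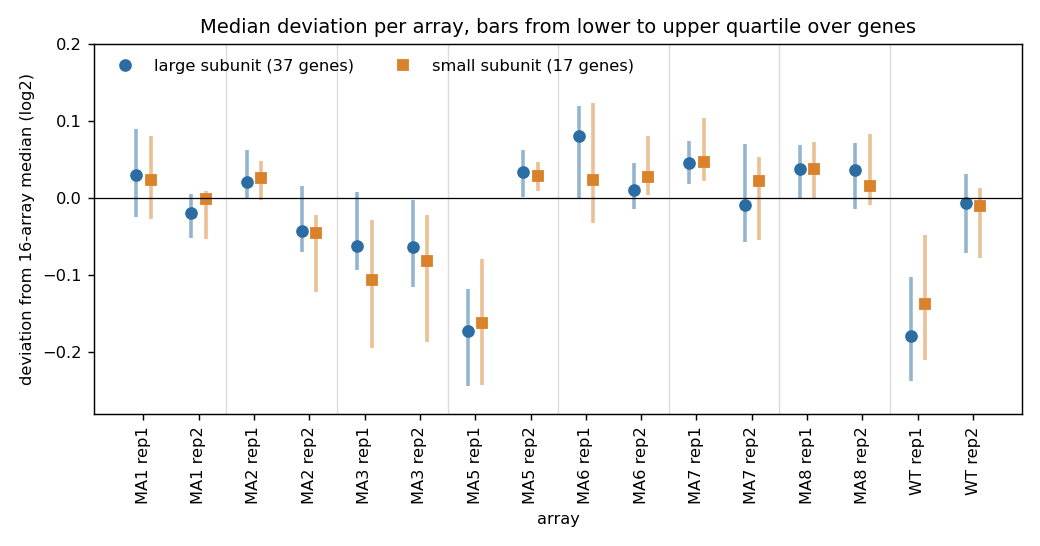
Median deviation (log2) of the large-subunit genes (blue circles) and small-subunit genes (orange squares) from their own 16-array medians on each array, with bars from the lower to the upper quartile over genes. The subunits move together, at 0.081 and 0.024 on MA6 replicate 1, and at -0.18 and -0.14 on WT replicate 1.

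The large and the small subunit followed each other across arrays. Their median deviations correlated with a Pearson r of 0.941 and a Spearman rho of 0.868 over the 16 arrays. Without MA5 replicate 1 and WT replicate 1 these were 0.862 and 0.807 over 14 arrays. The arrays share a normalization and include pairs under 1 label, so the coefficients are a description.

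The gap between the subunits was small on every array. The large-subunit median minus the small-subunit median lay between 0.057 on MA6 replicate 1 and -0.041 on WT replicate 1, and the pooled SD of this gap between arrays of a label was 0.026. In MA3 the gap was 0.044 on replicate 1 and 0.018 on replicate 2. With the ribosomal proteins of other names added to the lists, it was 0.018 and 0.011 there, and 0.032 and 0.020 in MA8. On MA3 replicate 1 the small subunit was at -0.11, with 15 of 17 genes below, and the large subunit at -0.062, with 26 of 37 below. MA6 did not repeat its gap, which was 0.057 on replicate 1 and -0.017 on replicate 2. The largest gaps, 0.057 on MA6 replicate 1, 0.044 on MA3 replicate 1 and -0.041 on WT replicate 1, were wider than the pooled SD of 0.026. None of them was repeated at that size on the second array of its label, which had 0.0037 in WT. No gap was tested.

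Single genes followed the group to very different degrees. The correlation of a gene with the median of the other 54 over the 16 arrays had a median of 0.769, and 33 of the 55 genes were over 0.7. Without MA5 replicate 1 and WT replicate 1 the median was 0.538, with 21 genes over 0.7 and 10 below 0, so a large share of the common movement came from those arrays. With all arrays 4 genes were below 0, and these were the 4 that correlated least. The share of all tested genes over 0.7 is not given here. SLN1, a gene outside the 55, had a correlation of 0.95 with their median, so values this high also occurred outside the family.

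MRPS16 had the highest correlation, 0.92, and a wide range. It was at 11.91 and 11.69 in MA1, 11.82 and 11.70 in MA2, 11.57 and 11.59 in MA3, 11.51 and 11.88 in MA5, 11.89 and 11.91 in MA6, 11.97 and 11.86 in MA7, and 11.89 and 11.83 in MA8, against 11.33 and 11.64 in WT (log2 expression, replicates 1 and 2). The arrays of MA1, MA2, MA6, MA7 and MA8 were all above both WT arrays, and those of MA3 and MA5 overlapped with WT.

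MRP7 (bL27m), a large-subunit protein whose bacterial counterpart lies close to the peptidyl transferase centre, had a correlation of 0.90. Its lowest arrays were MA5 replicate 1, at 11.15, and WT replicate 1, at 11.18, and its highest was MA8 replicate 1, at 11.62. On the other arrays of these labels it was at 11.54 in MA5 and 11.44 in WT, so the labels again split between their arrays.

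MRP8 carries the name of the family, but its product is a protein of unknown function that was once assigned to the mitochondrial ribosome from its sequence. Its transcript nevertheless followed the ribosomal proteins, with a correlation of 0.91, and 0.87 without the 2 low arrays. MRP8 was at 12.53 and 12.29 in MA1, 12.45 and 12.27 in MA2, 12.25 and 12.19 in MA3, 12.08 and 12.44 in MA5, 12.58 and 12.34 in MA6, 12.48 and 12.39 in MA7, and 12.35 and 12.44 in MA8, against 12.13 and 12.36 in WT. Only in MA7 were both arrays above both WT arrays.

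MRP4 moved the other way, with a correlation of -0.63. The transcript was at 10.57 on MA5 replicate 1, its highest array, and at 10.24 on MA6 replicate 1, its lowest, where the group as a whole was highest. In WT it was at 10.41 and 10.24. MRPL20 had a correlation of -0.52 and was at 11.37 and 11.22 in MA5, against 11.35 and 11.22 in WT. MRPL4 (-0.40) was at 10.17 and 10.09 in MA5, against 10.20 and 10.20 in WT, and MRPS35 (mS45, -0.05) kept within 10.63 to 10.84 on all 16 arrays. The ranges of these 4 genes spanned 0.22 to 0.33. Without the 2 low arrays the correlations were -0.53 for MRP4, -0.098 for MRPL20, -0.60 for MRPL4 and -0.11 for MRPS35.

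Some genes hardly varied at all. MRPL19 (uL11m), of the base of the stalk where translation factors bind, had the smallest SD, 0.042, and lay between 10.69 and 10.87. MRPL28 (mL40) had an SD of 0.046 and lay between 11.52 and 11.64. MRP13 (mS44) had one of 0.051 and lay between 10.95 and 11.14.

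**Figure D3:**
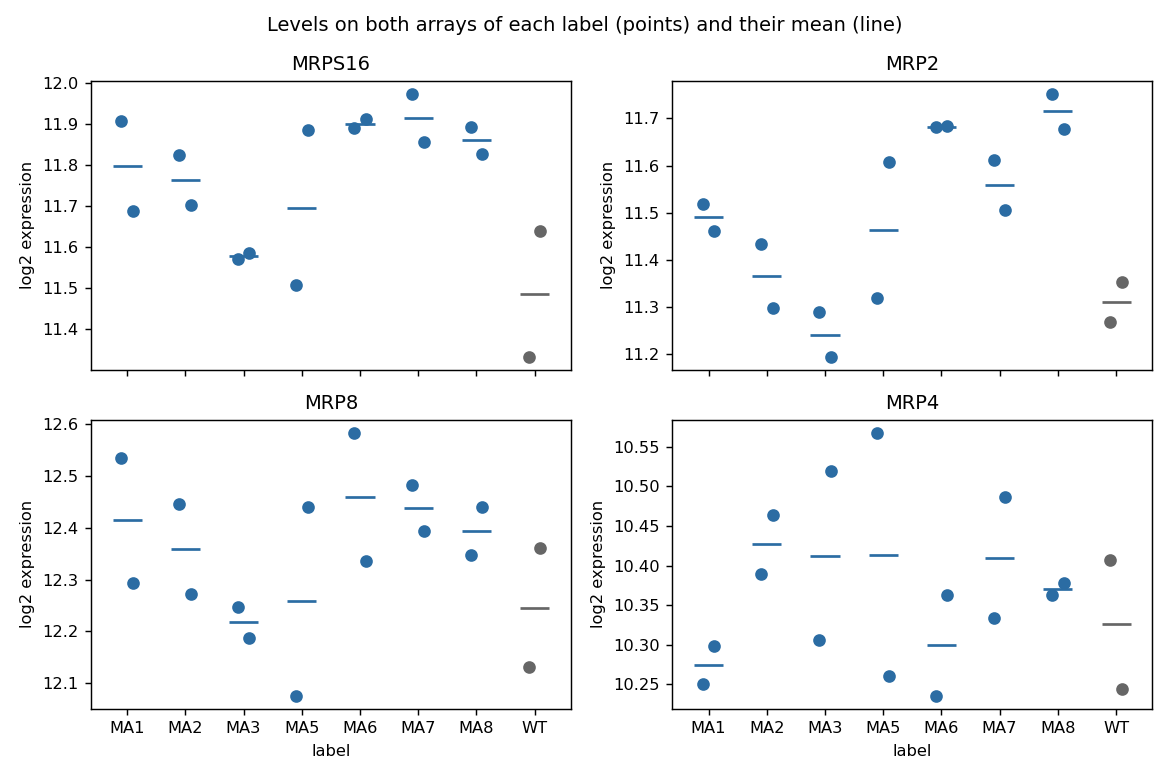
Log2 expression of MRPS16, MRP2, MRP8 and MRP4 on both arrays of each label (points) with their mean (line), mutants in blue and WT in grey. MRP2 is highest in MA6 and MA8, MRPS16 and MRP8 are split between the arrays of MA5 and of WT, and MRP4 is highest on an array of MA5, at 10.57.

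The 2 most variable genes, MRPL49 (SD 0.296) and MRPL8 (SD 0.233), are the only ones of the 55 on chromosome X. They encode large-subunit proteins with bacterial counterparts (bL21m and bL17m). MRPL8 was at 12.55 on MA3 replicate 1 and 12.39 on MA7 replicate 2, and between 11.63 and 12.00 on the other 14 arrays. MRPL49 reached 11.75 and 12.04 there, while its other 14 values lay between 10.94 and 11.20. Both genes are thus high on the same arrays, without overlap with the rest.

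The whole chromosome was raised on the same arrays. The median deviation of all tested genes of chromosome X was 0.72 (1.64-fold) on MA3 replicate 1 and 0.77 (1.71-fold) on MA7 replicate 2, while the medians of other chromosomes lay between -0.087 and 0.045 on all arrays. MRPL8 stood 1.60-fold and 1.44-fold over its own median on these arrays, and MRPL49 1.60-fold and 1.95-fold. The second array of each label showed nothing of the kind, with MRPL8 at 11.89 on MA3 replicate 2 and 11.76 on MA7 replicate 1. DNA copy number was not measured here.

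Mitochondrial ribosomal proteins with other names followed the chromosome too. RSM7 and RSM26, both of the small subunit and both on chromosome X, had deviations of 0.83 and 0.82 on MA3 replicate 1 and of 0.77 and 0.81 on MA7 replicate 2. The 53 genes on other chromosomes had a median of -0.064 on MA3 replicate 1 and -0.0081 on MA7 replicate 2, so the ribosome as a whole did not follow its members on chromosome X.

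**Figure D4:**
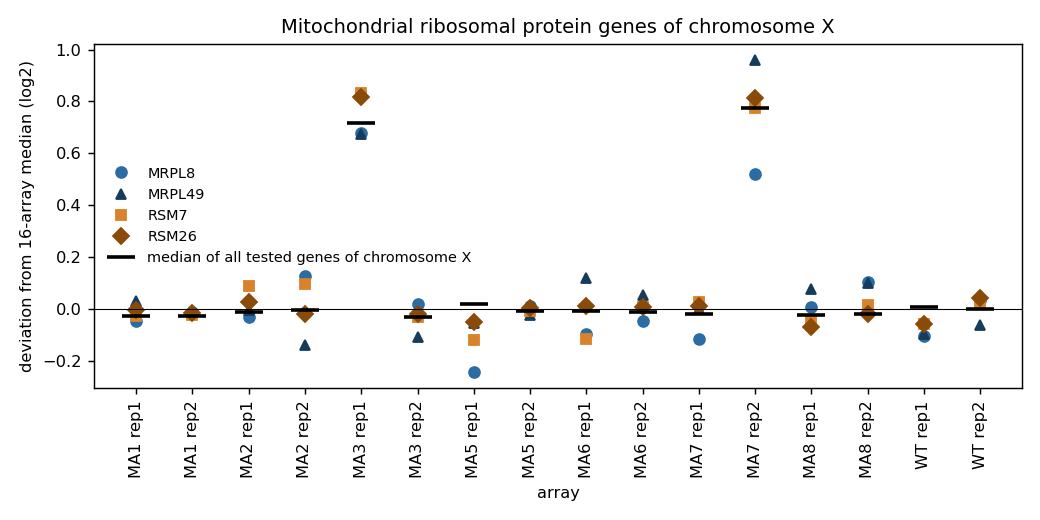
Deviation (log2) of MRPL8, MRPL49, RSM7 and RSM26 from their own 16-array medians on each array, with the median of all tested genes of chromosome X as black dashes. All 4 genes lie between 0.52 and 0.96 on MA3 replicate 1 and MA7 replicate 2.

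Each mutant was set against WT in a linear model with 1 mean per label over all 16 arrays (limma's moderated test, two-sided, with Benjamini-Hochberg adjustment over the 5449 genes). No gene of the 55 passed an adjusted p of 0.05 in any of the 7 comparisons, and neither did any other gene, so the share called was 0% in each. The counts at an unadjusted p under 0.05 are given below with their background. The comparisons share the WT arrays, one of which was the array WT replicate 1 with low levels of these genes, so they are not independent of each other.

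MA1 had 48 of the 55 genes with a fitted difference above 0 (47.4% of all genes), and a median difference of 0.091. On both arrays 20 genes were above both WT arrays (9.05% of all genes), and 3 had an unadjusted p under 0.05 on the higher side (1.01% of all genes). MRPL27 (mL41, of the large subunit) was at 12.00 and 11.65 in MA1, against 11.32 and 11.53 in WT, a difference of 0.40 ± 0.16 (SE, adjusted p = 0.607 by limma). MRPS16 differed by 0.31 ± 0.14 with the same adjusted p. Without MA1 replicate 1 the difference of MRPL27 was 0.22 and that of MRPS16 was 0.20, and without WT replicate 1 that of MRPS16 was 0.16. The count of 3 was unstable: it was 0 without WT replicate 1 or MA1 replicate 1, and 1 without any one array of MA2, MA3, MA7 or MA8. It was 8 without MA1 replicate 2, and 9 without WT replicate 2 or either MA5 array.

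MA2 had 51 genes above 0 (44.9% of all genes) and a median of 0.083. Its arrays were both above WT for 21 genes (8.06% of all genes), and 0 reached an unadjusted p under 0.05 (0.202% of all genes on the higher side and 0.514% on the lower). MRPS16 differed by 0.28 ± 0.14 and MRPL35 (mL38) by 0.14 ± 0.08, with an adjusted p of 0.943 by limma for both. MRPL35 was at 11.15 and 11.10 in MA2, against 10.95 and 11.03 in WT, groups that did not overlap but lay close together. The difference of MRPS16 was 0.12 without WT replicate 1 and 0.43 without WT replicate 2. At an unadjusted p under 0.05 there were 4 genes without WT replicate 2, and 1 without either MA5 array.

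MA3 had 35 genes above 0 (35.9% of all genes) and a median of 0.041. Only MRPL6, MRPL19, MRPL23 and MRPL35 had both arrays above both WT arrays (4.75% of all genes), all 4 of the large subunit, and 0 of the 55 reached an unadjusted p under 0.05 on the higher side (0.312% of all genes). MRPL6 (uL6m) was at 11.37 and 11.29 in MA3, against 11.03 and 11.25 in WT, a difference of 0.19 ± 0.10. MRPL51 (mL43) was at 10.91 and 11.04 in MA3, against 11.04 and 11.25 in WT, a difference of -0.17 ± 0.09. Both had an adjusted p of 0.792 by limma. Without WT replicate 1 the difference of MRPL6 was 0.076 and that of MRPL51 was -0.28. Without WT replicate 2 they were 0.30 and -0.062, and without MA3 replicate 1 that of MRPL51 was -0.11. Counting both directions, 3 genes reached an unadjusted p under 0.05 without WT replicate 2, 2 without MA3 replicate 2, and 1 without WT replicate 1, MA3 replicate 1 or either MA5 array.

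MA3 was the mutant with the widest gap between subunits. The median difference from WT was 0.057 for the large subunit, with 27 of 37 genes above 0, and -0.018 for the small subunit, with 8 of 17 above 0. The gap of 0.075 was 0.041 without the arrays with a raised chromosome X.

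MA5 had 34 genes above 0 (49.7% of all genes) and the smallest median, 0.024. It was the one mutant with a low array of its own. MRPL33 (uL30m) was at 10.94 and 10.89 in MA5, against 10.75 and 10.61 in WT, a difference of 0.23 ± 0.08, and MRPL37 (mL54) differed by 0.15 ± 0.09 (adjusted p = 1.00 by limma for both). Both arrays were above both WT arrays for 6 genes (6.4% of all genes), namely MRP10, MRPL19, MRPL33, MRPL37, MRPL39 and MRPL49. Of the 55 genes, MRPL33 alone reached an unadjusted p under 0.05 (0.220% of all genes on the higher side). This count of 1 was 5 without MA5 replicate 1 and 2 without MA5 replicate 2. The difference of MRPL37 was 0.081 without MA5 replicate 2 and 0.094 without WT replicate 2.

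MA6 had 46 genes above 0 (49.7% of all genes), a median of 0.13, and 30 genes with both arrays above both WT arrays (18.4% of all genes). It had the most genes at an unadjusted p under 0.05, 13, all on the higher side (4.53% of all genes), and this count was 3 without WT replicate 1 or MA6 replicate 1. MRP2 (uS14m), a small-subunit protein with a bacterial counterpart, was at 11.68 and 11.68 in MA6, against 11.27 and 11.35 in WT, a difference of 0.37 ± 0.10. MRP10 (mS37), a small-subunit protein with paired cysteine motifs, was at 11.60 and 11.43 in MA6, against 11.17 and 11.21 in WT, a difference of 0.32 ± 0.10. The groups did not overlap for either gene, and both had an adjusted p of 0.402 by limma. MRPL27 had the largest fitted difference, 0.48, with 12.02 and 11.78 in MA6 against the WT values above.

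MA7 had 52 genes above 0 (43.3% of all genes) and a median of 0.11. Both arrays were above both WT arrays for 22 genes (14.2% of all genes), and 8 genes had an unadjusted p under 0.05 on the higher side (2.07% of all genes). MRPS16 differed by 0.43 ± 0.14 and MRPL39 (bL33m) by 0.29 ± 0.10, each with an adjusted p of 0.526 by limma. MRPL39 was at 11.61 and 11.68 in MA7, against 11.32 and 11.38 in WT, without overlap. The largest fitted difference, 0.56, was that of MRPL49 and came with chromosome X on replicate 2. Without WT replicate 1 the difference of MRPS16 was 0.27. The count of 8 was 1 without WT replicate 1, 4 without either MA7 array, and 15 without WT replicate 2.

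MA8 had 50 genes above 0 (46.3% of all genes), a median of 0.13, and the most genes with both arrays above both WT arrays, 32 (14.5% of all genes). At an unadjusted p under 0.05 there were 9 on the higher side (1.47% of all genes). That count was 5 without WT replicate 1 or MA8 replicate 2, 14 without either MA5 array, and 15 without WT replicate 2. MRP2 was at 11.75 and 11.68 in MA8, and differed from WT by 0.40 ± 0.10. MRP10 was at 11.53 and 11.52 in MA8, and differed by 0.34 ± 0.10 (adjusted p = 0.966 by limma for both). MA8 was also the mutant whose arrays were most alike over the 55 genes, with a correlation of 0.57 and a root mean square difference of 0.064.

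**Figure D5:**
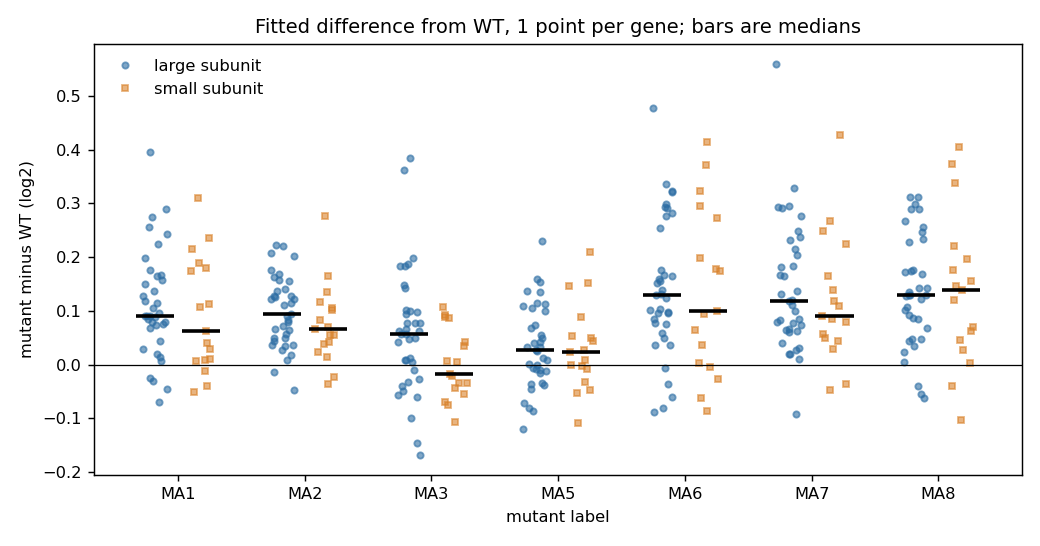
Fitted difference from WT (mutant minus WT, log2) of each large-subunit gene (blue circles) and small-subunit gene (orange squares) in each mutant, with the median of each subunit as a bar. Bars lie between -0.018 (small subunit in MA3) and 0.14 (small subunit in MA8), and 0 of the points passed an adjusted p of 0.05.

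Genes on the lower side were few in all mutants. Between 1 and 4 of the 55 had both arrays below both WT arrays, against 22.7% of all genes for MA1, 17% for MA2, 22.7% for MA3, 5.43% for MA5, 24.3% for MA6, 26.1% for MA7 and 22.8% for MA8. None of the 55 reached an unadjusted p under 0.05 on the lower side in any mutant, against 3.14% of all genes for MA1, 0.514% for MA2, 4.35% for MA3, 0.11% for MA5, 7.03% for MA6, 6.9% for MA7 and 2.59% for MA8. Across the 7 mutants, the median difference over all tested genes lay between -0.054 and -0.00059.

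These positive medians rested in large part on a single array. Without WT replicate 1 the median over the 55 genes was 0.027 for MA1, 0.021 for MA2, -0.032 for MA3, -0.052 for MA5, 0.055 for MA6, 0.056 for MA7 and 0.051 for MA8. Without WT replicate 2 it was 0.17, 0.16, 0.087, 0.087, 0.19, 0.17 and 0.21 in the same order. Without the 6 arrays on which URA3 opposed the label it was 0.17 for MA1, 0.20 for MA2, 0.087 for MA3, 0.20 for MA5, 0.17 for MA7 and 0.21 for MA8, and MA6 had no array left. The low array WT replicate 1 was then the only WT array. For MA1, MA3 and MA7 the arrays compared were thus the same as without WT replicate 2. MRP2 and MRP10 depended on WT replicate 1 less, and MRP2 kept a difference of 0.33 in MA6 and 0.36 in MA8 without that array.

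Among the 7 mutants, no gene passed limma's moderated F test at an adjusted p of 0.05 (0% called). At an unadjusted p under 0.05 there were 4 of the 55 genes, against 2.62% of all genes, namely MRP2, MRP10, MRPL31 and MRPL37. All 4 had an adjusted p of 0.887 by limma. The count was 1 without MA2 replicate 2, either MA3 array, MA6 replicate 1 or MA8 replicate 1, and 2 without MA1 replicate 2, MA6 replicate 2, MA7 replicate 2 or MA8 replicate 2. MRPL31 (mL60, of the large subunit) was at 11.84 and 11.88 in MA1, 11.98 and 11.84 in MA2, 11.65 and 11.71 in MA3, 11.72 and 12.06 in MA5, 12.11 and 12.09 in MA6, 12.09 and 11.97 in MA7, and 12.17 and 12.02 in MA8, against 11.70 and 11.86 in WT. MRP2 was at 11.52 and 11.46 in MA1, 11.43 and 11.30 in MA2, 11.29 and 11.19 in MA3, 11.32 and 11.61 in MA5, and 11.61 and 11.51 in MA7. Both genes had their lowest array in MA3 and their highest in MA8, with MA5 split between its arrays.

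The labels MA5 to MA8 differed from WT and MA1 to MA3 in bacterial control transcripts that are added to every sample. For the thr pair AFFX-r2-Bs-thr, the difference between the 3' and the 5' probe set did not overlap between these sets. It was 0.76 to 0.87 on the 8 arrays of MA5 to MA8 and 0.94 to 1.34 on the 8 arrays of WT and MA1 to MA3. The other thr pairs overlapped. AFFX-ThrX was at 1.83 on MA7 replicate 2 and 1.77 on WT replicate 2. AFFX-Scv2-r2-Bs-thr was at 0.62 on MA7 replicate 2 and 0.61 on MA2 replicate 2. The AFFX-r2-Bs pairs of dap, lys and phe also overlapped, with medians of 0.77, 1.02 and 0.73 in MA5 to MA8, against 1.08, 1.34 and 0.95 in the other set. WT lies in one set alone, so a difference of MA5, MA6, MA7 or MA8 from WT and this difference between sets cannot be told apart, while MA1, MA2 and MA3 share the set of WT.

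Several of the genes named above differed between the same sets of arrays. MRP2 had 11.32, 11.65 and 11.75 as its lowest, median and highest value in MA5 to MA8, against 11.19, 11.32 and 11.52 in WT and MA1 to MA3. The median difference between the sets was 0.32 for MRP2, 0.26 for MRP10, 0.25 for MRPL39, 0.24 for MRPL31, 0.24 for MRPL37 and 0.22 for MRPS16. These genes had been named for differences from WT or among the mutants in the same values, a choice that favours such a difference. Other genes named above went the other way, such as MRPL6 (-0.085), MRPL3 (-0.082), MRPL35 (-0.058), MRPL17 (-0.053) and MRPS35 (-0.051). Over the 55 genes the difference between the sets had a median of 0.061, with 43 higher and 12 lower in MA5 to MA8. Over all tested genes its median was 0.0054, with 2888 of 5449 higher. None of the 55 genes had all 8 arrays of MA5 to MA8 above the other 8 (0.220% of all genes). Without MA5 replicate 1 and WT replicate 1, MRPL36 and MRPL39 did (3.64% of the 55, against 0.716% of all genes).

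Seen over the 55 genes, arrays did not group by label. Taking the correlation of gene deviations, only MA8 replicate 2 lay nearest to the other array of its label. The 8 pairs of arrays with a shared label had a median correlation of 0.25 and a median root mean square difference of 0.158, and the 112 other pairs had -0.070 and 0.161. In MA1, MA5 and MA7 the correlation within the label was below 0.

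The closest pairs crossed labels. MA5 replicate 1 and WT replicate 1, both with low URA3, had a correlation of 0.81, while the other arrays with low URA3, MA2 replicate 2 and MA8 replicate 1, had one of -0.51. MA3 replicate 1 and MA7 replicate 2, both with a raised chromosome X, had one of 0.80, and 0.40 over the 53 genes on other chromosomes, a choice made after seeing the data. MA6 replicate 1 and MA1 replicate 1 had 0.70. These last arrays also shared a low level of CCT2, a subunit of the chaperonin, which was looked at after its values were seen. CCT2 was at 10.47 on MA6 replicate 1 and 10.64 on MA1 replicate 1. It was between 12.93 and 13.19 on the other 14 arrays. The second arrays of the same labels shared a low level of CCT3, another subunit. CCT3 was at 10.16 on MA1 replicate 2 and 10.22 on MA6 replicate 2, against 12.07 to 13.21 on the other 14 arrays. MA1 replicate 2 and MA6 replicate 2 had a correlation of -0.050, so a shared low subunit did not always come with similar profiles. MA8 replicate 1 and MA6 replicate 2 had a correlation of 0.71, and MA2 replicate 2 and WT replicate 2 had one of 0.65.

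Several other lists of the mitochondrial translation apparatus also had medians below 0 on MA5 replicate 1 and WT replicate 1. Of all tested genes, 45.6% and 47.1% were below their medians on these arrays. Of the 23 mitochondrial ribosomal proteins with other names (15 of the small subunit, 7 of the large, and RSM22), 21 were below their medians on MA5 replicate 1 and 22 on WT replicate 1, with medians of -0.14 and -0.13. Of 9 translation factors, 7 and 6 were below, with medians of -0.14 and -0.21. Of 12 mitochondrial aminoacyl-tRNA synthetases, which charge transfer RNAs with amino acids, 11 and 10 were below, with medians of -0.11 and -0.13. MSF1, for phenylalanine, was at 9.47 and 10.04 in MA5, against 9.44 and 10.12 in WT.

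Other groups of mitochondrial genes had the following medians, and the differences between groups were not tested. The 15 translational activators, which act on single mitochondrial messages, had medians of -0.033 on MA5 replicate 1 and -0.071 on WT replicate 1, with 10 below on each. One of them, PET122, ran the other way, at 9.12 and 8.61 in MA5, against 9.31 and 8.65 in WT. The 33 nuclear genes of the respiratory chain and ATP synthase had medians of 0.060 and -0.0051 on the same arrays. The 16 genes for mitochondrial chaperones and protein import had -0.081 and -0.097, the 6 tested ribosome assembly factors -0.11 and -0.077 with 5 and 4 below (MTG3 was not tested), and the 6 genes of mitochondrial genome maintenance and transcription -0.040 and -0.032.

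The respiratory genes stood out on other arrays. On MA1 replicate 1 and MA6 replicate 1 their medians were 0.17 and 0.20, with 29 and 30 of 33 above, where the 55 mitochondrial ribosomal protein genes had 0.030 and 0.063, with 36 (48.2% of all genes) and 38 above. QCR10, a subunit of complex III, reached 11.34 (MA1 replicate 1) and 11.53 (MA6 replicate 1), while its other values lay between 10.61 and 11.07. HAP4, the regulatory subunit of the activator of respiratory genes, had deviations of 0.70 and 0.79 there, and 0.68 on MA7 replicate 2. On MA7 replicate 2, however, the respiratory genes had a median of -0.0035. The other HAP genes looked at, HAP1, HAP2, HAP3 and HAP5, were below their medians on both of the former arrays. They were at -0.36, -0.046, -0.11 and -0.0055 on MA1 replicate 1, and at -0.26, -0.11, -0.24 and -0.0046 on MA6 replicate 1.

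Genes of growth and stress moved far more on the low arrays. The 60 ribosome biogenesis genes, which serve cytosolic ribosomes, had medians of 0.34 on MA5 replicate 1 and 0.36 on WT replicate 1, and the 27 environmental stress genes -0.58 and -0.63. The stress genes were highest on MA1 replicate 1 and MA6 replicate 1, at 0.35 and 0.49. HSP12, a stress-induced membrane protein, was at 10.56 and 12.86 in MA5, against 10.82 and 12.84 in WT. SPT15, whose 3' and 5' probe sets serve as an RNA control, had a difference between them of 1.21 on MA5 replicate 1 and 1.37 on WT replicate 1, and of 1.47 to 1.71 on the other 14 arrays. For ACT1 both low arrays, at 0.42 and 0.44, lay within the range of the others, 0.38 to 0.48. For WBP1 only MA5 replicate 1, at 1.36, was below the others, while WT replicate 1 had 1.55 (1.55 to 1.70 on the other 14). For RIP1 only WT replicate 1, at 0.25, was below them, while MA5 replicate 1 had 0.31 (0.27 to 0.49 on the other 14). The part of growth state or RNA quality in the low level of the mitochondrial ribosomal protein genes was not tested.

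PUF3, the RNA-binding protein, had deviations of -0.94 on MA5 replicate 1 and -0.59 on WT replicate 1, and of 0.93 on MA6 replicate 1. Its levels reached at most 6.87 and all lay below 7, in the dim range, and its own spread over the arrays was larger than that of any of the 55 genes.

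The genes outside the 55 whose profile over the 16 arrays was most like their median profile were SLN1 (Pearson r 0.95), NGL3 (0.95), VID30 (0.94), PAI3 (0.94), YAP6 (0.94) and SDH8 (0.94). Without the 2 low arrays the coefficients lay between 0.79 and 0.83. SLN1, the osmosensor kinase of the plasma membrane, was at 10.93 and 11.32 in MA5, against 10.99 and 11.26 in WT. SDH8, an assembly factor of succinate dehydrogenase, was at 11.33 and 11.74 in MA5, against 11.33 and 11.72 in WT. The most opposite profiles were those of NRP1 (-0.95), TRM5 (-0.95) and DUS3 (-0.94), of which TRM5 and DUS3 modify transfer RNAs. TRM5 was at 10.06 and 9.44 in MA5, against 9.98 and 9.57 in WT. The first 6 genes were thus low on MA5 replicate 1 and WT replicate 1, and the last 3 high on them. The arrays share a normalization, so these likenesses are a description.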

How the data were processed

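The deposited values are log2 expression per probe set of 16 single-colour arrays, for which the submitters' processing notes name Partek and RMA without versions. RMA subtracts background, normalizes across arrays and combines the probes of a set. Of 10928 probe sets, 5498 were paired with exactly 1 S. cerevisiae gene in the platform annotation (12 symbols updated through the R64 gene table), and 5449 genes were tested, each by its probe set with the highest mean. MRP35 was not analysed here. Groups came from the sample titles. limma 3.58.1 in R 4.3.3 (lmFit, eBayes; 8 residual and 2.03 prior degrees of freedom) was fitted to all arrays with 1 mean per label, and was tested on simulated data. Deviations, medians and correlations used Python 3.11.15, numpy 2.4.6 and pandas 2.3.3. Precision is limited by the number of arrays.

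Named genes were, per mutant, the 2 with the largest absolute moderated t; the 6 with the largest and 3 with the smallest SD; the 3 most and 4 least correlated with the others; MRP8; those on chromosome X; and the 6 most and 3 least similar genes outside the list. Genes called at an unadjusted p and extremes of a group were named after their values were seen. The members, gene lists and tests were chosen with earlier results of these data known. Same-numbered arrays did not deviate together across labels as a rule (median correlation 0.03 over 28 pairs of labels, 7 of them over 0.1). Single pairs ranged from -0.66 to 0.93. The numbers were not taken to pair samples. Alternatives covered normalization, dim probe sets, probe set choice, variance model, array weights, a minimum fold of 1.2, the replicate block, chromosome centring, the subunit lists and leaving out arrays.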

Additional observations from a re-analysis of the deposited data

Results flagged for a closer look

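For 5 of the 55 genes, both arrays of one mutant lay above both WT arrays and both arrays of another lay below them. The share of all tested genes with this pattern is not given here, so the count has no background to be read against. Per mutant, 4.75% (MA3) to 18.4% (MA6) of all genes had both arrays above both WT arrays. Both arrays lay below them for 5.43% (MA5) to 26.1% (MA7). The differences between these mutants were not tested. MRP1 (mS43, of the small subunit) was at 11.98 and 11.96 in MA7 and at 11.71 and 11.75 in MA3, against 11.75 and 11.86 in WT, so that MA7 minus WT exceeded MA3 minus WT by 0.24. MRP13 was at 11.09 and 11.14 in MA7 and at 10.96 and 10.96 in MA2, against 10.96 and 11.03 in WT, which is 0.15 between MA7 and MA2.

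MRPL17 (mL46, of the large subunit) was at 10.85 and 10.85 in MA2, 10.67 and 10.67 in MA3, 10.77 and 10.75 in MA6 and 10.76 and 10.69 in MA7, against 10.83 and 10.80 in WT. Its difference from WT was higher in MA2 than in MA3 by 0.18, than in MA6 by 0.095 and than in MA7 by 0.13. MRPS35 was at 10.82 and 10.77 in MA2, 10.63 and 10.68 in MA6 and 10.70 and 10.70 in MA8, against 10.76 and 10.72 in WT. For this gene MA2 exceeded MA6 by 0.14 and MA8 by 0.095. MRPL15 (mL57, of the large subunit) was at 10.12 and 10.10 in MA3, 10.21 and 10.23 in MA6 and 10.22 and 10.21 in MA8, against 10.14 and 10.21 in WT. Here MA6 exceeded MA3 by 0.11, and MA8 exceeded MA3 by 0.10.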

How the results depend on the processing

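The count of called genes among the 55 was 0 in every comparison under each of the 29 to 31 settings run, and the lowest adjusted p by limma was 0.133, for MA6. The replicate block leaves the fitted differences as they were by construction in this balanced design (median 0.091 for MA1). It changed no call, and MA1 had 1 gene at an unadjusted p under 0.05 with it, against 3 without. Chosen after seeing the data, leaving out the 6 arrays with opposing URA3 gave medians of 0.17 for MA1, 0.20 for MA2, 0.20 for MA5 and 0.21 for MA8, and gaps of large minus small subunit of 0.075 for MA1, 0.10 for MA3 and 0.055 for MA7. That setting kept the low array WT replicate 1 as the only WT array. Leaving out MA5 replicate 1 and WT replicate 1 gave medians of -0.032 for MA3, 0.055 for MA6 and 0.051 for MA8, and gaps of -0.026 for MA1, -0.051 for MA6 and -0.0078 for MA7. Without the arrays with a raised chromosome X the gap for MA3 was 0.041. Quantile normalization gave a gap of -0.0072 for MA7. Adding the proteins with other names gave gaps of 0.033 (MA1 replicate 1), 0.018 (MA3 replicate 1), -0.037 (MA5 replicate 1) and 0.032 (MA8 replicate 1). Removing chromosome medians gave -0.047 (MA5 replicate 1), and deviations from the mean gave -0.015 (MA8 replicate 2). The cause of these shifts was not tested. Leaving out each array in turn gave medians of 0.027 to 0.17 for MA1, 0.021 to 0.16 for MA2, -0.032 to 0.087 for MA3, -0.068 to 0.12 for MA5, 0.055 to 0.19 for MA6, 0.056 to 0.17 for MA7 and 0.051 to 0.21 for MA8. The gaps were then -0.026 to 0.075 for MA1, 0.021 to 0.087 for MA2, 0.041 to 0.10 for MA3, -0.043 to 0.034 for MA5, -0.051 to 0.076 for MA6, -0.0078 to 0.055 for MA7 and -0.029 to 0.018 for MA8. No named difference from WT changed sign when 1 array was left out.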
